A study of Mus musculus with 12 samples.

Results

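The proteins of the cytosolic ribosome were followed as 1 group of genes across the 12 libraries of a mouse corneal endothelium study. The group holds every protein-coding gene of the count table whose symbol has the form of a ribosomal protein of the large subunit (Rpl, with Rplp0 to Rplp2) or of the small subunit (Rps, with Rpsa). That rule took 85 of 32761 genes, 53 of the large subunit and 32 of the small subunit, and used no measured value. The rule left out cytosolic ribosomal proteins with other kinds of symbol, of which Fau, Rack1 and Rpl36al are given beside the group, and 11 rows for annotated copies ending in -ps.

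The ribosome joins a large and a small subunit, each built on ribosomal RNA with 1 copy of nearly every protein, so cells make these proteins in matched amounts. Their messenger RNAs are short and abundant and begin with a run of pyrimidines, the 5′ terminal oligopyrimidine (TOP) tract, through which the growth signalling of mTORC1 sets their translation together. Excess ribosomal proteins are degraded, and a few of them, free of the ribosome, bind Mdm2 and so link ribosome assembly to p53.

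Polyadenylated RNA was sequenced from the corneal endothelium, the single cell layer at the back of the cornea. Mutant mice were homozygous for Q455K in Col8a2, a collagen VIII gene of Descemet membrane and a model of Fuchs endothelial corneal dystrophy, and were compared with wild-type mice. There were 3 biological replicates of early mutants and early wild type (up to 2 months of age, batch 1) and of late mutants and late wild type (8 months or older, batch 2). Stage and batch therefore cannot be told apart. The labels do not say how many animals were pooled in a library.

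Libraries held 19722598 to 39431676 counts, and 17965 genes passed the filter on low counts. All 10 corneal endothelial markers were present, with a summed level of 10100 to 14940 CPM (counts scaled to library size, after TMM scaling) in early mutants against 8138 to 11140 in early wild type, and of 10080 to 12730 in late mutants against 6475 to 13210 in late wild type. Of these 10, 0 were called early and 1 was called lower late, where 0.59% of all genes were called early and 5.47% late. Markers of myeloid cells summed to 293 to 647 CPM in early mutants against 37.9 to 71.3 in early wild type, and to 457 to 556 in late mutants against 46.9 to 74.8 in late wild type. In that list, 8 of 11 genes passed the threshold as higher early and 10 of 11 late. Photoreceptor markers summed to 155 to 307 CPM in early mutants against 29.1 to 65.1 in early wild type, with 3 of 6 called higher, and melanocyte markers to 90.03 to 226 against 28.9 to 41.9, with 0 of 5 called. Late, the values of both lists overlapped between genotypes. Of 5 keratocyte markers 2 were called higher at each stage and 1 lower late, with summed levels that overlapped. Of 7 lens markers 0 were called early and 2 were called higher late, also with summed levels that overlapped. The part of these cell types in the ribosomal results was not tested, and in bulk tissue a change in the make-up of the cells and a change in RNA per cell cannot be told apart.

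Ribosomal protein transcripts made up between 1.74% of all counts in late mutant replicate 1 and 3.02% in late mutant replicate 2. The lowest and the highest share thus came from the same group. The share was 2.51 ± 0.21% in early mutants against 2.24 ± 0.34% in early wild type, and 2.30 ± 0.66% in late mutants against 2.16 ± 0.35% in late wild type (SD, n = 3 each). The values of mutants and wild type overlapped at both stages. On the TMM scale used for the tests, the summed level was 26549 ± 3078 CPM in early mutants against 21749 ± 1777 in early wild type, with no overlap, and 21126 ± 3568 CPM in late mutants against 22412 ± 1817 in late wild type (SD, n = 3 each). The late difference thus turned its direction with the scaling, within overlapping groups.

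The balance between the subunits varied far less than the total. Counts of small-subunit genes divided by those of large-subunit genes ranged over the 12 libraries from 0.663 to 0.706, a coefficient of variation of 2.15%, while that of the summed share was 16.7%. The ratio was 0.673 ± 0.0087 in early mutants against 0.691 ± 0.019 in early wild type, and 0.671 ± 0.013 in late mutants against 0.685 ± 0.012 in late wild type (SD, n = 3 each). Mutants and wild type overlapped in this ratio too. The plot of counts by subunit shows both quantities.

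**Figure D1:**
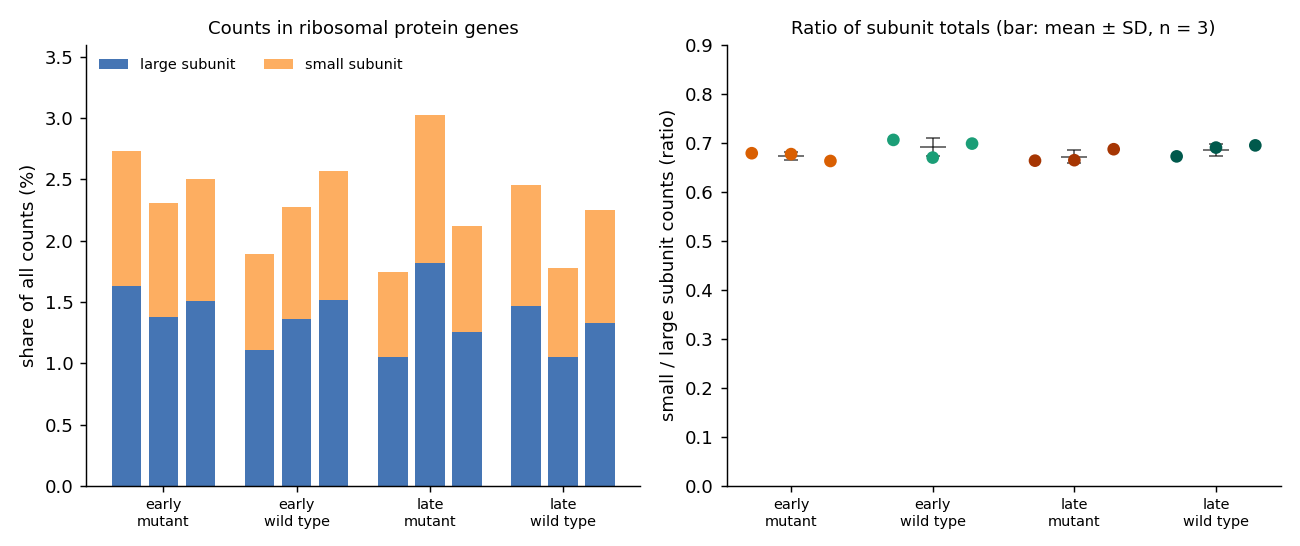
Left, percent of all counts in large-subunit and small-subunit genes, 1 stacked bar per library, with replicates 1 to 3 of each group from left to right. Right, small-subunit counts divided by large-subunit counts (ratio) per library, with mean ± SD of 3 replicates. The share runs from 1.74% to 3.02%, whereas the ratio stays between 0.663 and 0.706.

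Levels of single genes were compared by the deposited FPKM, which divide by gene length. They therefore depend on the length used, 322 to 5136 bases over the members. The median member stood at 263 FPKM over the 12 libraries, with 243 for the large and 296 for the small subunit. Of the 85 members, 66 had a mean of at least 100 FPKM, 6 of them at least 1000. Rps27 was highest at 1736 FPKM, followed by Rps14 at 1511 and by Rpl41, which encodes the shortest ribosomal protein, at 1458. Rpl35 at 1239 and Rpl13 at 1164 completed the 5 highest.

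Low values marked the tissue-restricted copies and a core gene. Rpl3l, the form of Rpl3 in heart and skeletal muscle, stood at 0.10 FPKM against 364 for Rpl3, and Rpl10l, a testis form of Rpl10, at 0.041 against 599 for Rpl10. Rpl32l had 2.04 FPKM. Rpl28 is a core component of the ribosome, yet it was listed at 0.16 FPKM, with 0 to 6 counts in any library. Ribosomal protein genes have many near-identical processed copies in the genome, and the counting rule for shared reads is not stated, so the level of any member is uncertain.

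Other paralogs were expressed well. Rpl39l reached 109 FPKM against 263 for Rpl39, a protein of the exit tunnel, and Rpl22l1 reached 99.4 FPKM against 29.2 for Rpl22. The order of the last pair rests on the length divisor, 486 bases for Rpl22l1 against 2208 for Rpl22. In CPM, Rpl22l1 stood below Rpl22 in each group mean, at 59.4 against 71.6 in early mutants. The gap between Rpl39l and Rpl39 depends on length too, at 860 against 413 bases. In CPM, Rpl39l stood at 104 against 127 for Rpl39 in early mutants. Only in late wild type was the group mean of Rpl39l the higher, at 103 against 83.7. The lengths of Rps27l and Rps27 also differ, at 2748 against 346 bases. Rps27l stood at 139 FPKM against 1736 for Rps27, and Rpl7l1, which acts in the assembly of the large subunit, at 34.3 against 409 for Rpl7. Of all members, Rpl28 and Rpl10l did not pass the filter, which left 83 tested, 51 of the large and 32 of the small subunit.

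Promoter sequence was available for 64 of the 85 members, in windows from 250 bases before to 50 after the first listed transcription start (RefSeq, GRCm38.p6, an earlier build than the GRCm39 named by the submitters). The letters CCGGAAG, a core bound by ETS factors, occurred on either strand in 26 of these 64 members (40.6%) against 9.85% of 26961 other genes. Those other genes were all others with promoter sequence, not limited to protein-coding genes or to genes that passed the filter here. Whether the members differ from other expressed genes in these letters was not tested. The GC box GGGCGG was in 60.9% against 38.1%, and TATAAA at 20 to 40 bases before the start in 1.56% against 2.41%. A C followed by at least 4 C or T at the annotated start, as in a TOP tract, was found in 14 members (21.9%) against 2.96% of other genes. Allowing a C followed by 7 C or T within 30 bases of the start, it was 54.7% against 20.5%.

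Below are 80 bases before and 20 after the start for 6 members picked from the genotype comparisons, none of which passed the threshold in the main test. Bases are in lower case on the gene's strand. Capitals mark CCGGAAG on either strand (written CTTCCGG where it lies on the other) and a pyrimidine run that begins at the start itself. The first 3 are among the 4 members whose values were higher in all mutants than in all wild types at both stages, a pattern of 3.89% of all genes. The last 3 are among the 8 members with lower values in all late mutants than in all late wild types (9.64%, against 10.9% of all genes).
Rpl10 (chrX:74270736-74270835, plus strand): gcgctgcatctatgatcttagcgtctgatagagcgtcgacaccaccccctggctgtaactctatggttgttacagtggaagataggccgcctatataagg
Rps19 (chr7:24884512-24884611, plus strand): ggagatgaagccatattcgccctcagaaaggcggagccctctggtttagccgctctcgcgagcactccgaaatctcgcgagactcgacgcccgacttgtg
Rps18 (chr17:33955646-33955745, minus strand): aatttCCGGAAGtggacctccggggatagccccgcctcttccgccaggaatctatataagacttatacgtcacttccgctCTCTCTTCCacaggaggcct
Rpl11 (chr4:136053374-136053473, minus strand): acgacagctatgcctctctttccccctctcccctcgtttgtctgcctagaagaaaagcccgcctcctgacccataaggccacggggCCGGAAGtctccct
Rps7 (chr12:28635934-28636033, minus strand): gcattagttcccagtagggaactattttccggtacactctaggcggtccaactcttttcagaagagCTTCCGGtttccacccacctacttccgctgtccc
Rps3 (chr7:99483690-99483789, minus strand): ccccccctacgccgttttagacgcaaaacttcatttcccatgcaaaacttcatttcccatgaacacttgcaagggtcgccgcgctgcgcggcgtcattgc
The ETS-type letters stand once each in the windows of Rps18, Rpl11 and Rps7, so they occur in both sets, and of the 6 only Rps18 has a pyrimidine run at the annotated start, 9 bases long. A match is a description of the letters in this window and not a measured binding site.

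In early mutants, most ribosomal protein genes stood slightly above wild type, but none passed the threshold. The log2 fold change was above 0 in 78 of 83 members (94%), against 43.1% of all genes tested. The median was 0.30 over the members, 0.28 for the large and 0.32 for the small subunit, against -0.11 over all genes. By edgeR's quasi-likelihood test with Benjamini-Hochberg adjustment over all genes, 0 members were called, where 0.59% of all genes were. At an unadjusted p under 0.05 there were 2, both higher (8.77% of all genes). DESeq2 and limma-voom, the latter run with a weight per library throughout, also called 0 members, against 1.37% and 0.835% of all genes. The levels of all 3 mutants lay above those of all 3 wild types in 24 of 83 members (28.9%) and below them in 0, against 10.1% and 11.8% of all genes.

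Library by library, the shift was uneven. Relative to each gene's mean over the 12 libraries, the median member deviated in log2 CPM by 0.41, -0.01 and 0.26 in early mutant replicates 1, 2 and 3, against -0.06, -0.18 and 0.06 in early wild-type replicates 1, 2 and 3. Early mutant replicate 2 lay within the wild-type values, so the groups overlapped in the median. The median early log2 fold change ran from 0.22 without early mutant replicate 1 to 0.43 without early mutant replicate 2, and it was 0.19 (all genes -0.04) when genes under 5 CPM were left out before scaling.

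Rpl10, one of the last proteins to join the large subunit, had the highest early fold. It stood at 630.4, 507 and 562 CPM in early mutants against 348, 357 and 428 in early wild type. The 2 groups did not overlap. The log2 fold change was 0.59 ± 0.24 (SE, adjusted p = 0.502, edgeR), and the unadjusted p was 0.0242. Rpsa, the laminin receptor and a protein of the small subunit, stood at 404, 369 and 285 CPM in early mutants against 243, 172 and 298 in early wild type. Here 1 mutant lay below 1 wild type, and the log2 fold change was 0.57 ± 0.27 (SE, adjusted p = 0.569, edgeR). Rps21 followed at 0.52 on the log2 scale, with overlapping groups.

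The 3 lowest early values among members of at least 5 CPM were close to 0. Log2 fold changes were -0.11 for Rps3, -0.09 for Rpl7l1 and -0.08 for Rpl34, each with overlapping groups and none past the threshold. Without early wild-type replicate 1, Rpl7l1 moved to 0.23.

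In the late comparison the fold changes of the members did not shift one way but spread out. The log2 fold change was above 0 in 38 of 83 members (45.8%), against 50.1% of all genes, and the median was -0.02 against 0.00 over all genes. The interquartile range of the members was -0.42 to 0.24, where early it had been 0.21 to 0.36. Over all genes it was -0.65 to 0.60 late and -0.63 to 0.27 early. By library, the members were spread most widely in late wild-type replicates 2 and 3 and not in late mutants, as given below. The subunit medians were -0.04 for the large and 0.02 for the small subunit. The edgeR test called 0 members, against 5.47% of all genes, and 13 members had an unadjusted p under 0.05, of which 11 were lower and 2 higher (28.1% of all genes). The groups did not overlap for 8 members that were higher (9.64%, against 14.9% of all genes) and for 8 that were lower (9.64%, against 10.9%). The plot of genotype effects by gene shows the narrow early and the wide late spread.

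**Figure D2:**
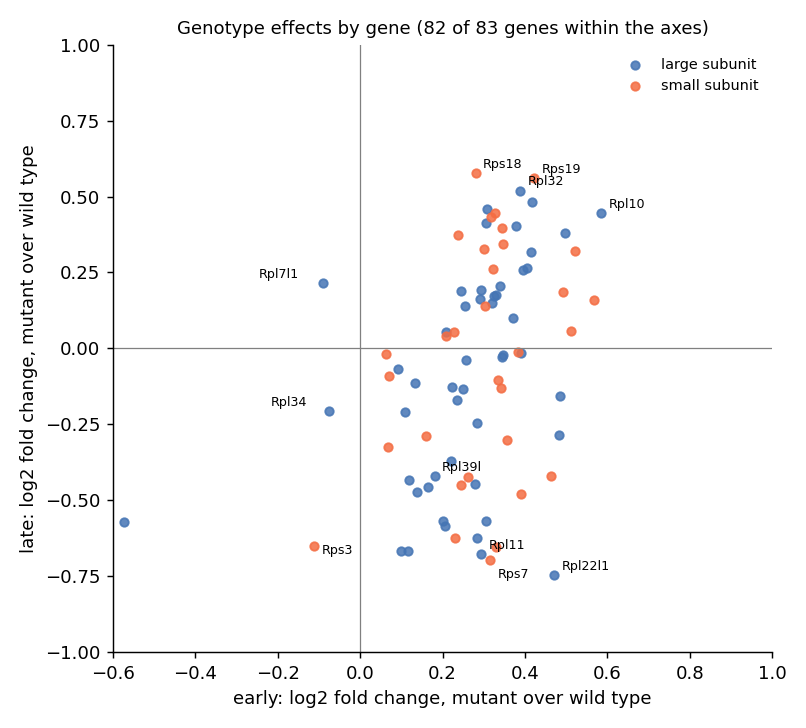
Log2 fold change of mutant over wild type for each member, late (vertical axis) against early (horizontal axis), coloured by subunit, with genes named by the selection rule labelled. Most points lie right of 0 on the early axis, while the late axis spans both directions for both subunits. Rpl3l, near the detection limit, lies outside the axes, at -1.71 early and 0.79 late.

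Rpl11, which with Rpl5 carries the 5S ribosomal RNA into the large subunit and binds Mdm2, had the smallest late p. It stood at 133, 188 and 180.04 CPM in late mutants against 226, 279 and 297 in late wild type. All late mutants lay below all late wild types. The log2 fold change was -0.68 ± 0.24 (SE, adjusted p = 0.085, edgeR), 1.60-fold lower, which missed the threshold. Its partner Rpl5 was at -0.47 on the log2 scale (adjusted p = 0.23).

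Rps7, a small-subunit protein, stood at 122, 141 and 134 CPM in late mutants against 142, 229.7 and 273 in late wild type. The highest mutant and the lowest wild type nearly met. The log2 fold change was -0.70 ± 0.25 (SE, adjusted p = 0.0949, edgeR). The largest late difference below 0 was that of Rpl22l1, the paralog of Rpl22, at -0.75 on the log2 scale (adjusted p = 0.13). It had 27.6, 35.3 and 41.8 CPM in late mutants against 30.5, 64.3 and 80.9 in late wild type, so the groups overlapped through late wild-type replicate 1. Rpl22 itself was at -0.04.

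Rps3, which lies where the message enters the ribosome, was at 424, 511 and 466 CPM in late mutants against 535, 789.7 and 876 in late wild type. The groups did not overlap, and the log2 fold change was -0.65 ± 0.25 (SE, adjusted p = 0.111, edgeR). Rps6, the substrate of the S6 kinases, was at -0.62 on the log2 scale (adjusted p = 0.148), and Rpl7, of the large subunit, at -0.57 (adjusted p = 0.129). Rps4x and Rpl3 were at -0.45 and -0.43, each with overlapping groups.

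Other members lay above wild type in late mutants. Rps18, a small-subunit protein near the decoding region, had 397, 604 and 489.7 CPM in late mutants against 342, 316 and 341 in late wild type. The groups did not overlap, and the log2 fold change was 0.58 ± 0.23 (SE, adjusted p = 0.124, edgeR), 1.49-fold. Rps19, needed for small-subunit assembly and mutated in human Diamond-Blackfan anaemia, had 444, 503 and 464 CPM in late mutants against 413, 233 and 312 in late wild type. The groups did not overlap there either, and the log2 fold change was 0.56 ± 0.25 (SE, adjusted p = 0.152, edgeR). Rpl32 was at 0.52 (adjusted p = 0.183).

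None of the common reference genes in the panel was called. Log2 fold changes were 0.39 early and -0.02 late for Rplp0, a protein of the stalk, 0.32 and 0.15 for Rpl13a, and 0.32 and 0.26 for Rps27a, which is made as a fusion with ubiquitin. Rplp0 had 755, 771 and 718 CPM in early mutants against 642, 493 and 576 in early wild type, with no overlap, and its late groups overlapped. Rps18, also used as a reference gene, stood below Rplp0, Rpl13a and Rps27a early, at 0.28, and above them late, at 0.58.

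**Figure D3:**
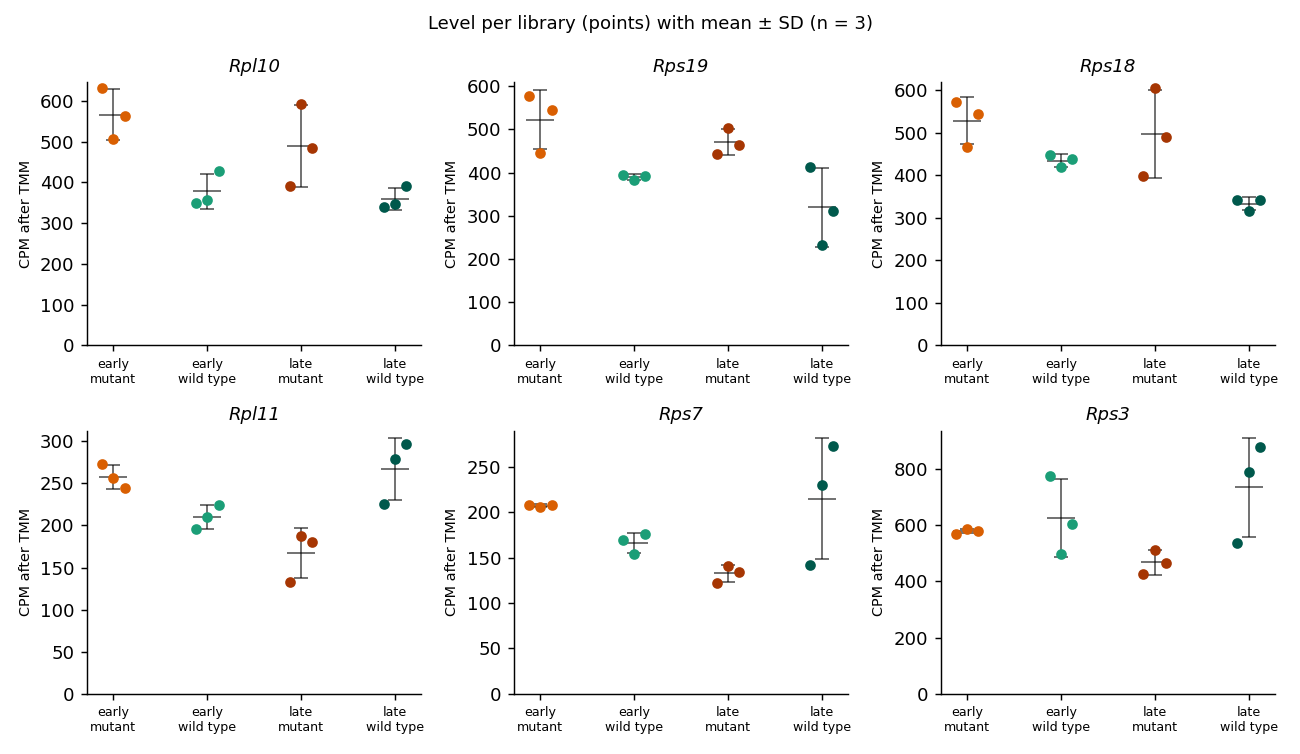
CPM after TMM scaling per library (points, 3 per group) with mean ± SD, for 6 members. Values of Rpl10, Rps19 and Rps18 are higher in all mutants than in all wild types at both stages, those of Rpl11 and Rps7 higher in early and lower in late mutants, and those of Rps3 lower in late mutants, with early groups that overlap. None passed the threshold.

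The late calls turned on 1 library. Without late wild-type replicate 1, edgeR called 14 of 83 members (16.9%), while calls over all genes rose to 20.3%. In that fit 7 members were higher (among them Rpl32, Rpl36, Rpl37a, Rplp1, Rps18 and Rps19) and 7 lower (Rpl11, Rpl22l1, Rpl24, Rpl6, Rps3, Rps6 and Rps7), some of them named here after their values were seen. With all libraries, DESeq2's Wald test called 2 members, Rpl11 and Rps7, both lower. Limma-voom, in which libraries do not weigh equally, called these with Rps3 and Rpl24, all 4 lower. Those tools called 13.8% and 9.71% of all genes. With an offset for gene length, the late median was 0.13 against -0.05 over all genes, with 50 members above 0, so the late direction of the median depends on that setting.

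The late effect was set against the early effect in an interaction test. The difference, late minus early, was below 0 in 68 of 83 members with a median of -0.29, against 0.03 over all genes, of which 51.7% were above 0. Its median ran from -0.41 to -0.14 when single libraries were left out. With an offset for gene length it was -0.18 against -0.11 over all genes, with 30 members above 0. edgeR called 0 members, against 0.00557% of all genes, and 10 had an unadjusted p under 0.05, all negative (11.2% of all genes). DESeq2 and limma-voom called 0, against 1.82% and 0.379% of all genes. The difference was -0.97 ± 0.33 for Rpl11 (SE, adjusted p = 0.26, edgeR) and -1.22 ± 0.44 for Rpl22l1 (adjusted p = 0.278).

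Averaged over both stages, the genotype effect was above 0 in 55 of 83 members with a median of 0.12, against -0.08 over all genes, of which 45% were above 0. edgeR called 0 members, against 6.85% of all genes, and 9 had an unadjusted p under 0.05, 8 of them higher (24.3% of all genes). Rpl10 was first at 0.51 ± 0.17 (SE, adjusted p = 0.0725, edgeR), with late levels of 392, 591 and 484 CPM in late mutants against 340.4, 347 and 390.2 in late wild type. Those late groups also did not overlap. Rps19 followed at 0.49 ± 0.18 (adjusted p = 0.0956) and Rps18 at 0.43 ± 0.17 (adjusted p = 0.121). DESeq2 called 2 members, Rpl10 and Rps19, and limma-voom 4, those with Rps18 and Rpl32, while these tools called 12% and 12.8% of all genes. With the gene-length offset the median was 0.22. Without late wild-type replicate 1, edgeR called 11 members, all higher, as 15.6% of all genes were called.

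Across both stages, the groups did not overlap for 4 members that were higher early and lower late (Rpl11, Rpl7, Rps3a1 and Rps7), a pattern of 0.607% of all genes, and for 4 that were higher at both stages (Rpl10, Rps16, Rps18 and Rps19), a pattern of 3.89%. Rps19 had 576, 445 and 545 CPM in early mutants against 395, 382 and 392 in early wild type, and Rps18 had 572, 466 and 544 CPM in early mutants against 446, 418 and 438 in early wild type. Their early log2 fold changes were 0.42 ± 0.25 and 0.28 ± 0.23 (SE, adjusted p = 0.605 and 0.68, edgeR). Rpl11 had 273, 256 and 244 CPM in early mutants against 196, 210.2 and 224 in early wild type. This difference was 0.29 ± 0.24 on the log2 scale (SE, adjusted p = 0.674, edgeR). In Rps7 the early mutants lay close together, at 208, 206 and 208 CPM, against 169, 154 and 176 in early wild type, and the difference of 0.32 ± 0.25 on the log2 scale (SE, adjusted p = 0.674, edgeR) did not pass.

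Between stages within a genotype, late mutants stood below early mutants in 80 of 83 members, with a median log2 difference of -0.30 against 0.04 over all genes, of which 53.6% were above 0. Late wild type stood above early wild type in 44 members, with a median of 0.03 against 0.07 over all genes, of which 55.9% were above 0. With single libraries left out, the median ran from -0.44 to -0.17 in mutants, with 2 to 7 members above 0. In wild type it ran from -0.12 to 0.08, with 26 to 61 members above 0. edgeR called 0 members and 0% of all genes in both comparisons, with 9 members, all lower, in mutants (6.53% of all genes) and 0 in wild type (4.03%) at an unadjusted p under 0.05. DESeq2 and limma-voom called 0 members in both. Over all genes those tools called 0.111% and 1.61% in mutants, and 0.00558% and 0% in wild type. Stage and batch cannot be told apart here, and the median in mutants was -0.16 with an offset for gene length.

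Coherence was described by Pearson correlations of log2 CPM between members over the 12 libraries, which share scaling, depth and batch. The median over 3403 pairs was 0.491, with 0.426 within the large subunit, 0.541 within the small subunit and 0.507 between the subunits, and 83.4% of pairs were above 0. Pairs of all genes tested had a median of 0.0011. After removal of the group means the member median was 0.502.

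Each member was also set against the median of the others. The correlation was above 0.5 in 65 of 83 members and below 0 in 3. Rpl36a (0.921) and Rps10 (0.918) were among those that followed the others most closely. The 3 lowest were Rpl7l1 (-0.387), and Rpl32l (-0.057) and Rpl3l (-0.039), of which the last pair had mean levels under 10 FPKM. Rps27l, a paralog of Rps27 induced by p53, stood at 0.066, with 393, 302 and 383 CPM in late mutants against 175, 453 and 521 in late wild type.

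A second pattern lay under the shared one. Of the variance of 81 members of at least 5 CPM in 3 libraries, 46.7% fell on the first component and 31.3% on the second. When each library's median member was subtracted, 54.7% of what remained fell on 1 component. Its highest library scores were 0.576 and 0.53, in late wild-type replicates 2 and 3, while late mutants scored -0.293, -0.281 and -0.221 and late wild-type replicate 1 scored -0.19. In late wild-type replicates 2 and 3 the interquartile range of member deviations was 0.561 and 0.585 log2 units, against 0.119 to 0.405 in the other 10 libraries. Over all genes those replicates were also the widest, at 1.22 and 1.20 against 0.584 to 1.00 elsewhere.

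Both subunits took part in this pattern, at either end. Rpl22l1, Rpl7a, Rps6, Rps3, Rpl24 and Rps7 had the highest gene scores, in the direction of late wild-type replicates 2 and 3 once each library's median was subtracted, and Rplp1 and Rplp2 of the stalk with Rps19, Rpl37a and Rpl32 had the lowest, names taken after the values were seen where the rule does not give them. Rplp1 had 393, 476 and 402 CPM in late mutants against 397, 235 and 279 in late wild type. Rps6 had 303, 323 and 313 CPM in late mutants against 311, 561 and 575 in late wild type. Late wild-type replicate 1 thus lay with the mutants for both genes. Across the 81 members, the score on this component had a correlation with GC content of -0.364 and with gene length of 0.216, and the part of base composition or length in the pattern was not tested.

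**Figure D4:**
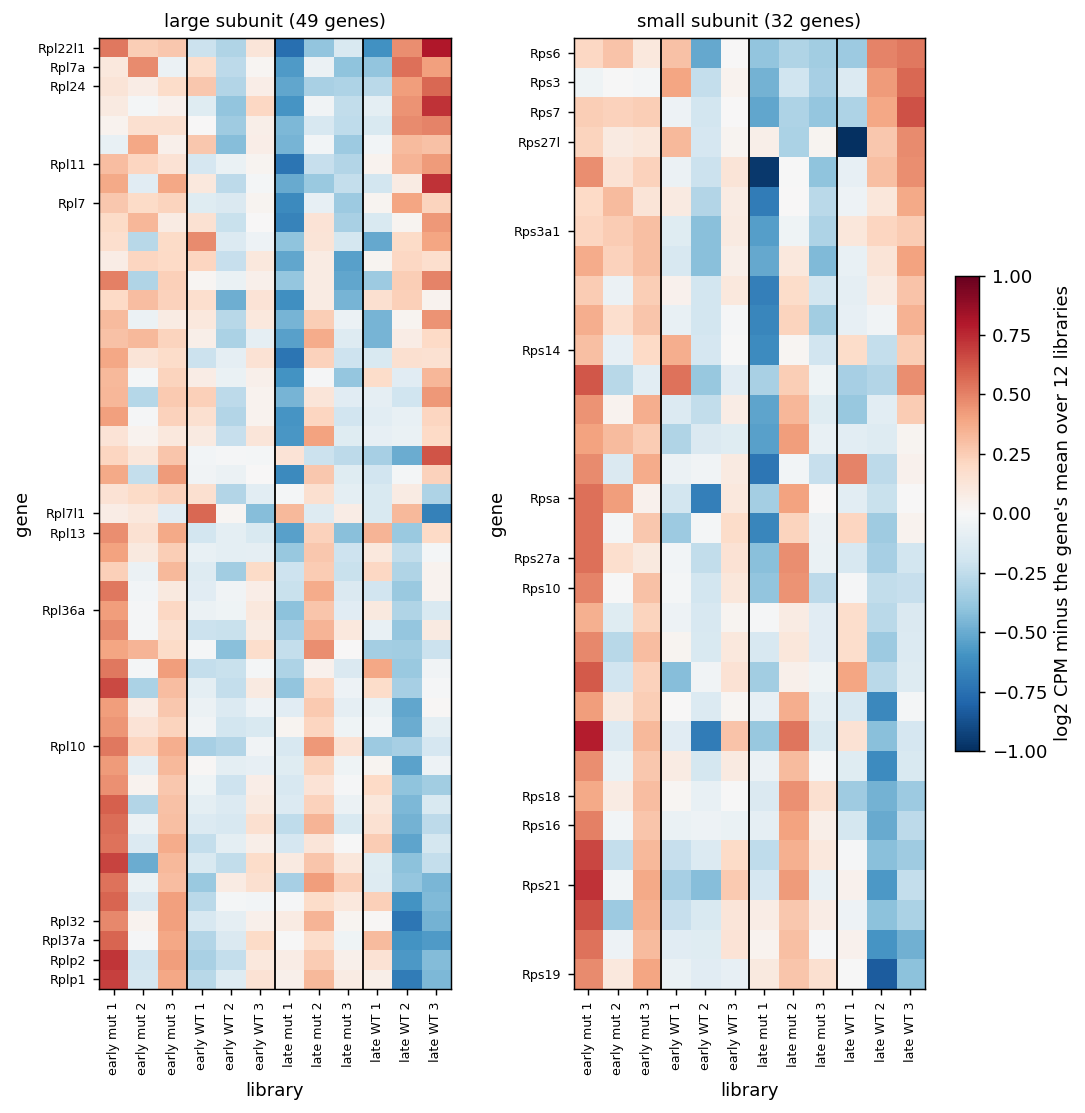
Log2 CPM of 81 members minus each gene's own mean, by library (columns) and gene (vertical axis, with some genes of the text labelled), for the large and the small subunit, with colours limited to ±1 log2 unit. Genes are ordered by their score on the component left after the shared profile. Most genes are red in early mutant replicates 1 and 3 and blue in late mutant replicate 1, while late wild-type replicates 2 and 3 split into a red and a blue end in both subunits.

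Of the ribosomal proteins outside the rule, Rpl36al had log2 fold changes of 0.52 early and 0.46 late, Fau of 0.26 and -0.29, and Rack1 of -0.15 and -0.06. None of these was called at either stage. With 177 ± 36 CPM in early mutants against 123 ± 17 in early wild type (SD, n = 3 each), Rpl36al had an adjusted p of 0.57 (edgeR). Of 19 elongation factors and other genes with TOP messages, 0 were called at either stage (0.59% of all genes early and 5.47% late), with 0 early and 3 late at an unadjusted p under 0.05 (8.77% and 28.1% of all genes). Their median was 0.11 early and -0.05 late. Btf3, a subunit of the nascent polypeptide complex that is also in the list of chaperones, was at -0.71 late (adjusted p = 0.0723).

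Mitochondrial ribosomal protein genes, the counterpart in the other ribosome of the cell, had lower values in late mutants without passing singly. Their median was -0.04 early and -0.61 late over 78 genes, 69 of which lay below 0 late, where 50.1% of all genes lay above 0. edgeR called 0 at either stage, with 0 early and 35 late at an unadjusted p under 0.05, all 35 lower, against 8.77% of all genes early and 28.1% late. In the average of the stages 1 gene was called, Mrpl27, a large-subunit protein of the mitochondrial ribosome, at -0.85 (adjusted p = 0.0407), a call lost in 11 of 22 alternatives, the replicate block among them. Their median deviation was -0.23, -0.45 and -0.23 in late mutants against -0.40, 0.55 and 0.58 in late wild type, so that late wild-type replicate 1 again lay among the mutants. The median pairwise correlation was 0.72 among them and -0.0132 between them and the cytosolic genes.

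Genes that build the ribosome or set its protein synthesis changed in a few cases. Myc, a transcription factor that drives ribosome production, had 6.58, 5.44 and 5.75 CPM in early mutants against 0.79, 2.55 and 2.63 in early wild type, and 8.73, 6.52 and 6.99 CPM in late mutants against 2.07, 2.09 and 1.75 in late wild type. All mutants lay above all wild types at each stage. It rose 3.76-fold late (adjusted p = 0.0147, edgeR) and was 2.97-fold higher early without passing (adjusted p = 0.132). The late call was lost in 2 of 23 alternatives, without late mutant replicate 1 and without late wild-type replicate 3, with adjusted p over all alternatives from 0.000535 to 0.0619. Of 21 regulators tested it was the only one called late and 0 were called early, where 5.47% and 0.59% of all genes were. In the average, where 6.85% of all genes were called, Trp53, which encodes p53, joined it at 0.66 on the log2 scale (adjusted p = 0.0322), a call lost in 8 of 22 alternatives.

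Of 44 ribosome biogenesis genes, 0 were called at either stage, with 3 early and 10 late at an unadjusted p under 0.05, against 8.77% of all genes early and 28.1% late. In the average, where 6.85% of all genes were called, 2 rose, the nucleolar GTPase gene Gnl3 at 0.69 on the log2 scale (adjusted p = 0.0258) and the rRNA methyltransferase gene Nop2 at 0.75 (adjusted p = 0.0444), calls lost in 7 and 12 of 22 alternatives, for Nop2 also with the replicate block. Of 11 genes for chaperones and import of ribosomal proteins, 0 were called at either stage, with 0 early and 3 late at an unadjusted p under 0.05, where 28.1% of all genes were late. Medians of the longer lists stand beside those of the ribosomal genes in the plot of gene lists.

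**Figure D5:**
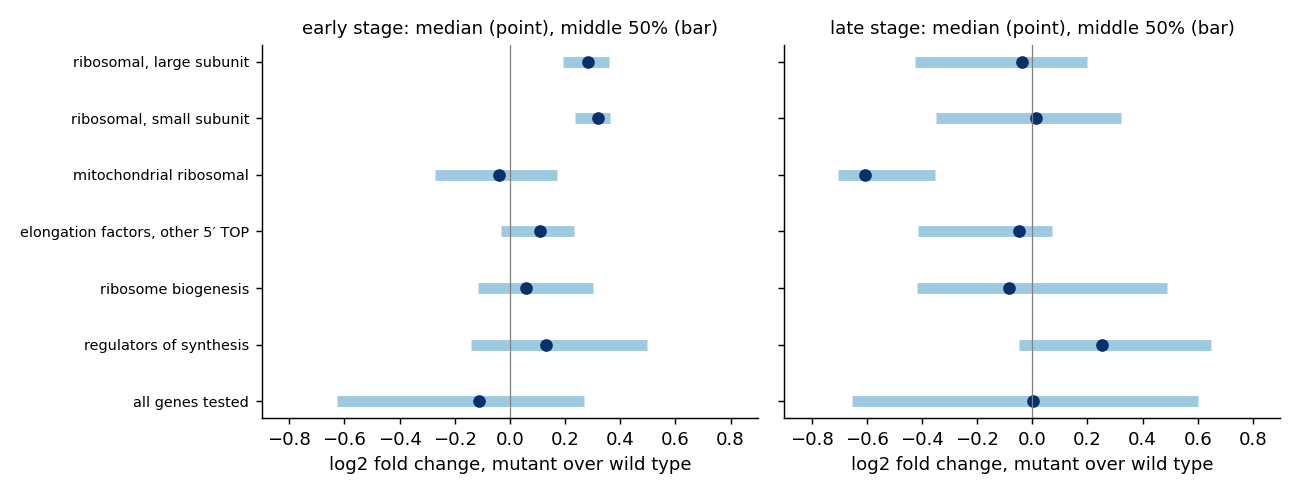
Median log2 fold change of mutant over wild type (point) and the middle 50% of genes (bar) for each gene list and for all genes tested, early (left) and late (right). The cytosolic subunits sit at 0.28 and 0.32 early and near 0 late, and the mitochondrial ribosomal genes at -0.04 early and -0.61 late.

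The authors' deposited table of the early comparison listed all 85 members, 0 of them with a q-value under 0.05, and its smallest q-value was 0.16 for Rpl10. The authors' deposited table of the late comparison listed 83 members, also 0 under 0.05, with 0.0816 for Rpl11 as the smallest. Median log2 fold changes of the members in the authors' deposited tables were 0.25 early and -0.11 late, against -0.17 and 0.02 over all genes they list.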

How the data were processed

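Whole-number counts per gene were deposited for each of 12 libraries, with FPKM and tables of their own comparisons holding log2 fold changes and q-values, per the file headers. GRCm39 was the build, with HTSeq, HISAT2, fastp and DESeq2 as tools, per the submitters' processing notes. Annotation, strand setting and treatment of multiply mapping reads: not given in the sources used here. Per the labels, groups, batches and biological replicates were taken as stated. FPKM equalled counts divided by a fixed gene length and the library total and served for levels between genes.

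A single robust quasi-likelihood model of edgeR 4.0.16 under R 4.3.3 (8 residual degrees of freedom) held all 12 libraries, after filterByExpr and TMM. P-values were adjusted by Benjamini-Hochberg over 17965 genes at a threshold of 0.05. The common biological coefficient of variation was 0.464. The mean squared difference between 2 replicates of a group was 54.6 to 273.6 times that of sampling noise, a ratio of variances. CPM are after TMM, and log2 CPM used a prior count of 2. The fit was tested on simulated data.

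DESeq2 1.42.0 and limma-voom 3.58.1 with sample weights, other filters and scalings, a replicate block, offsets and single libraries left out were the alternatives. Deviations of same-numbered replicates had correlations of -0.0878 to 0.0813. No pairing by number was visible, which does not show that samples were unpaired. Members and lists were chosen with earlier results of these data known. Members named are the 5 of highest and lowest FPKM, the 3 highest and 3 lowest log2 fold changes per stage, paralogs, the 3 most and least coherent, and a fixed panel of 9. RefSeq tables of GRCm38.p6 gave promoter sequence and GENCODE transcripts gave GC content. Some genes that the rule names are not reported here.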

Additional observations from a re-analysis of the deposited data

Results flagged for a closer look

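For 4 members, all mutants lay above all wild types early and all mutants lay below all wild types late. The log2 fold change late minus early was -0.97 for Rpl11, -0.87 for Rpl7, -0.87 for Rps3a1 and -1.01 for Rps7. The difference between stages was tested with edgeR's interaction term and passed for none, with adjusted p of 0.26, 0.309, 0.314 and 0.271 in the same order. Over all genes tested, 109 of 17965 (0.607%) had the same pattern of non-overlap. Rps3a1 had 469.9, 483 and 499 CPM in early mutants against 372, 304 and 431 in early wild type, and 278, 394 and 328 CPM in late mutants against 439, 470.03 and 485 in late wild type. Rpl7 had 453, 428 and 438 CPM in early mutants against 345, 340.1 and 382 in early wild type, and 241, 355 and 291 CPM in late mutants against 384, 493 and 439 in late wild type.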

How the results depend on the processing

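No member was called early, in the interaction or between stages under any alternative run. Late, the 0 calls became 2 with DESeq2's Wald test, 4 with limma-voom and 1 (Rps18, higher) with the gene-length offset, and ran from 0 to 14 with single libraries left out. For the average effect the 0 calls became 2, 4 and 2 under the same 3 settings, and ran from 0 to 11 with single libraries left out. The median effects moved by less than 0.21, the SD between replicates of a single library's median member. That SD was not scaled to differences of group means, so it does not show that the medians were stable. With single libraries left out the medians ran from 0.22 to 0.43 early and from 0.06 to 0.26 in the average. Late they ran from -0.13 to 0.18, so the sign changed. The difference of the subunit medians, large minus small, early -0.04, moved to -0.0985 with the gene-length offset and -0.0570 with the GC-content offset (chosen after seeing the data), and ran from -0.0429 to 0.0232 with single libraries left out. Late, at -0.05, it moved to -0.156 with the gene-length offset and ran from -0.0950 to -0.0134. With no filter the early median of all genes was -0.56 against -0.11, while that of the members was 0.36. The interaction median was -0.15 with the stricter filter, and the average median 0.06 with protein-coding genes alone. With the gene-length offset the medians were 0.13 late, -0.18 in the interaction (all genes -0.11) and 0.22 in the average. With the replicate block 0 members were called in each comparison, and the medians were 0.30 early and -0.02 late, so it changed no call of a member. It ended the average calls of Mrpl27 and Nop2. Fits of the compared libraries alone give no interaction or average. The causes were not tested. Per gene, the SE of about 0.26 on the log2 scale limits what 3 replicates a group can show.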
